A study of Mus musculus with 18 samples.

Results

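The sites described here are 574 intervals of H3K4me3, trimethylation of lysine 4 of histone H3, in mouse spermatocytes that share no base with any listed DMC1 hotspot. They were taken from a list of H3K4me3 intervals common to C57BL/6J (B6) and Ewsr1 CKO mice, which held 5567 distinct intervals, 5468 of them on autosomes and 99 on the X chromosome. An autosomal interval was chosen when it shared no bp with any of the 9132 rows of a list of DMC1 hotspots common to B6, Ewsr1 CKO and Prdm9 het mice, and 574 of the 5468 autosomal intervals met this rule (10.5%, Wilson 95% interval 9.71 to 11.3%, which covers counting error only). The other 4894 autosomal intervals overlapped a DMC1 row and served for comparison. On the X, 1 interval had no DMC1 row. A hotspot absent from the shared DMC1 list may still be present in 1 or more of the 3 genotypes, since the rule by which rows were called shared is not given in the sources used here.

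The series comprised 18 ChIP-seq samples of spermatocytes from males aged 14 days. B6 stands for the inbred strain C57BL/6J with no engineered allele named. Ewsr1 CKO mice carried a conditional knockout of Ewsr1, a gene for an RNA-binding protein, with the Cre recombinase Stra8-iCre, whose promoter is active in premeiotic male germ cells, and Prdm9 het mice had the genotype Prdm9+/-, with 1 intact copy of Prdm9. The 6 columns used came from 5 groups of 2 samples: DMC1 for each of these 3 genotypes, and both histone marks for Ewsr1 CKO. Samples of Prdm9 Set-KO mice and inputs were not analysed here. Each column gave a single value per site in RPM, reads scaled to library size, and whether it pools both samples or holds 1 of them is not stated. Every H3K4me3 and H3K36me3 value below is therefore from Ewsr1 CKO spermatocytes, has no replicate spread and no known read depth, and carries no p-value. Medians and shares over sites describe these columns and were not set against variation between animals.

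PRDM9 is a zinc finger protein of early meiotic prophase that binds DNA and trimethylates histone H3 on lysine 4 and on lysine 36, so that a PRDM9 site carries both H3K4me3 and H3K36me3. SPO11 then makes double strand breaks at a subset of these sites in each cell, and the recombinase DMC1 coats the resected single-stranded DNA, which is why DMC1 ChIP-seq maps the breaks. H3K4me3 also marks active promoters independently of PRDM9, and H3K36me3 also accumulates along the bodies of transcribed genes, where other methyltransferases place it. An H3K4me3 interval without a DMC1 row can thus, as background, be a PRDM9 site where few or no breaks were mapped, a promoter, or an interval of another kind.

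The intervals without a DMC1 row fell into a pair of unlike sets. Most, 476 of 574, were scattered over the autosomes and were narrower and lower in both marks than intervals with a DMC1 row. The other 98 lay in 2 unbroken runs, 78 at the start of chromosome 17 and 20 at the end of chromosome 5, and were closer in width to intervals with a DMC1 row, with median H3K4me3 at 121% and H3K36me3 at 106% of theirs.

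Few listed intervals held a promoter start, with or without a DMC1 row. Only 68 of 31396 autosomal promoters had their start in any listed interval (0.217%). The low share is thus a trait of the whole list and not of these intervals. A RefSeq transcription start site lay inside 10 of the 564 intervals on the chromosomes for which start sites were analysed (1.77%). On the same chromosomes, a start lay inside 51 of 4735 intervals with a DMC1 row (1.08%). The background there was 61 of 5299 autosomal intervals (1.15%). Of the 10 genes, 4 were protein-coding and 6 were long noncoding RNAs. The 4 coding ones were Cdh23, a cadherin of the tip links of inner ear hair cells, Cst8, a cystatin of the testis and epididymis, Gm11545, a predicted gene, and Plin1, a coat protein of lipid droplets. The 250 bases before each of these starts lie wholly inside the interval. They are examples from intervals that hold a coding start and do not stand for the whole set. Most intervals held no start, and their sequence was not examined. The stretches below are printed from RefSeq, GRCm38.p6, 5′ to 3′ on the strand of the gene, with each CpG dinucleotide in capitals. They are chr10:60696491-60696740 on the minus strand for Cdh23, chr2:148798589-148798838 on the plus strand for Cst8, chr11:94761183-94761432 on the minus strand for Gm11545 and chr7:79732777-79733026 on the minus strand for Plin1.
Cdh23: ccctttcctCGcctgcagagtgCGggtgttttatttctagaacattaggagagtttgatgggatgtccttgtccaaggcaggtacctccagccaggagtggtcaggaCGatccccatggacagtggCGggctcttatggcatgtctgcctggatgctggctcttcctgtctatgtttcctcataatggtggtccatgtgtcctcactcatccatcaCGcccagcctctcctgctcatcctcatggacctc
Cst8: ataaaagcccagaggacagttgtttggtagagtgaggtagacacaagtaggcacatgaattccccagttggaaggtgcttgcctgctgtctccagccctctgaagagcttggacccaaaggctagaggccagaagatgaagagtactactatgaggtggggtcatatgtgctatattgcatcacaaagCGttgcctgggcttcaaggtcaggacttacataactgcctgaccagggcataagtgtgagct
Gm11545: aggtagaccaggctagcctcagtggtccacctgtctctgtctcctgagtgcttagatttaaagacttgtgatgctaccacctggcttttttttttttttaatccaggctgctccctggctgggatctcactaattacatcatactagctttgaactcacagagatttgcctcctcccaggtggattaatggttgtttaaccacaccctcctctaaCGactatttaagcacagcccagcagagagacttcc
Plin1: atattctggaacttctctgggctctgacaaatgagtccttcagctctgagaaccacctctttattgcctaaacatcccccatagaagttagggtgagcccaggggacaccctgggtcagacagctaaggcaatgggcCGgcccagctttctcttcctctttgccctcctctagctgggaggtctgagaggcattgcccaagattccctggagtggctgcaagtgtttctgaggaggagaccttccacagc

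These stretches are poor in CpG: Cdh23 has 5 in its 250 bases, and Cst8, Gm11545 and Plin1 have 1 each. Counted over 300 bases around the start (250 before and 50 after), the 10 promoters inside intervals without a DMC1 row held a median of 2.5 CpG (range 0 to 9), the 58 promoters inside intervals with a DMC1 row held 4, and all 31396 autosomal promoters of the table held 7 (up to 67). The median ratio of observed to expected CpG was 0.157, 0.219 and 0.389 in the same order, while the median GC content was 50.5%, 48.5% and 53%. The GC box letters GGGCGG, searched on both strands, were in 0 of the 10 promoters, in 3 of the 58 (5.17%) and in 11295 of all promoters (35.98%). In CpG and GC box the promoters of both sets were below all promoters, so this was not particular to intervals without a DMC1 row. The letters TATAAA, searched on both strands whether or not a GC box was present, were in 0 of 10, 6 of 58 (10.3%) and 4276 of all (13.6%). H3K4me3 at the 4 coding starts was below the median of all autosomal intervals, 1.00 RPM, in each case: values were 0.917 RPM H3K4me3 and 0.726 RPM H3K36me3 at Cdh23, 0.315 and 0.305 RPM at Cst8, 0.554 and 0.448 RPM at Gm11545, and 0.623 and 0.793 RPM at Plin1. The Plin1 interval (chr7:79732499-79733526) lay 2151 bp from a DMC1 row with 187 RPM in B6, whereas the Gm11545 interval (chr11:94760807-94761949) lay 846820 bp from the nearest row.

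Genes that act in meiosis were looked up from a list of 33, which holds break formation, synapsis, repair and PRDM9 pathway genes. Of these, 32 were in the RefSeq gene table and 26 had an analysed start site, and 0 of the 26 starts lay inside any listed interval, with or without a DMC1 row. Over all 31396 autosomal promoters, 68 starts did (0.217%), so 0 of 26 is near the background. The closest was Msh4, whose product promotes crossing over, at 3747 bp. No gene of the list held an interval without a DMC1 row in its body, and 2 (Iho1 and Msh4) held one with a DMC1 row. The sets differ in size, 574 against 4894 intervals, and the share over all gene bodies was not computed. Nothing is therefore read from these counts. The labelled cell type could not be checked against marker genes from these intervals.

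The intervals without a DMC1 row were unevenly spread over the chromosomes. On chromosome 17 they made up 84 of 202 intervals (41.6%), against 4% to 13.8% on the other 18 autosomes. Chromosome 17 held 14.6% of the intervals without a DMC1 row, 2.41% of those with one and 2.87% of the autosomal DMC1 rows. When intervals were read in order along each chromosome, 336 of the 574 (58.5%) stood alone between intervals with a DMC1 row, and the rest formed 51 runs of 2, 10 runs of 3, 2 runs of 4 and the runs of 20 and 78. The 2 long runs were singled out after their values were seen. With them set aside, 476 of 5370 intervals lacked a DMC1 row (8.86%), between 4% and 12.2% on each autosome. The share on chromosome 17 was then 4.84%. Only intervals without a DMC1 row were set aside, so a fall there was fixed by that choice.

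**Figure D1:**
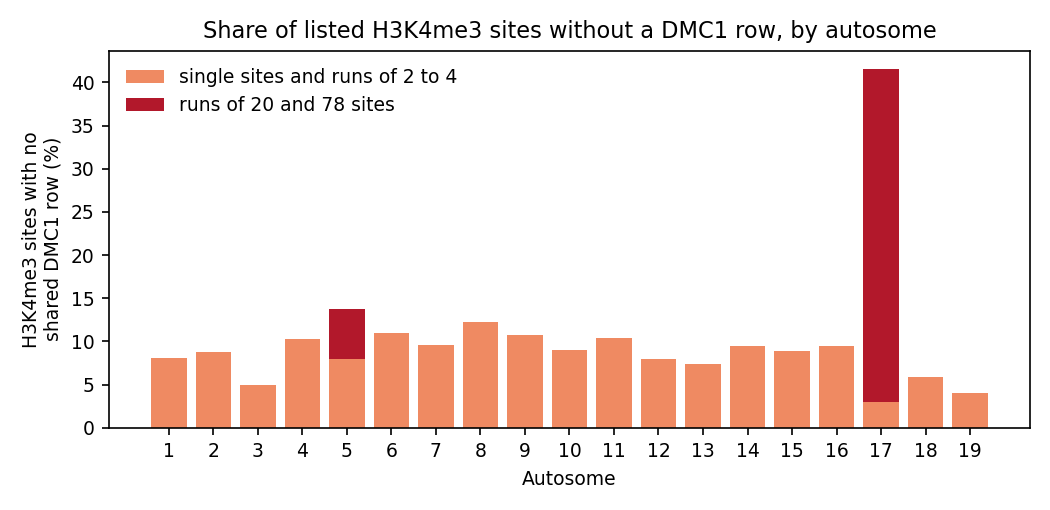
Share of listed H3K4me3 intervals with no shared DMC1 row (vertical axis, percent) on each autosome (horizontal axis), split into intervals in the runs of 20 and 78 and all others. Chromosome 17 reaches 41.6% and the other 18 autosomes lie between 4% and 13.8%, and without the runs every autosome is at or below 12.2%.

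The run on chromosome 17 began at the first listed interval of the chromosome and spanned chr17:3277863-30649347, 27.4 Mb in which all 78 listed H3K4me3 intervals lacked a DMC1 row. From the next interval, at position 31365930, to the end of the chromosome, 6 of 124 intervals lacked one (4.84%). The run on chromosome 5 spanned chr5:143029256-150744339, 7.72 Mb up to the last listed interval, and before it, up to position 142697590, 27 of 321 intervals lacked a DMC1 row (8.41%). H3K4me3 intervals were not thinner on the ground inside the runs: their density was 2.85 per Mb inside and 1.97 per Mb over the rest of chromosome 17, and 2.59 and 2.29 per Mb on chromosome 5. Of the 32 meiotic genes with a position, 3 lay inside the runs (9.38%), as did 504 of 21883 protein-coding RefSeq genes (2.30%), and nothing is read from so small a count. They are Prdm9 itself (chr17:15543072-15564374), Meiob (chr17:24804301-24839788), which encodes a single-strand binding protein of meiotic recombination, and Brca2 (chr5:150522297-150570147), a gene of homologous recombination. The interval nearest to a Prdm9 start site was 132420 bp away.

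DMC1 rows were present in both stretches, 32 on chromosome 17 and 6 on chromosome 5. Since the runs were picked as unbroken series of H3K4me3 intervals without a DMC1 row, no row inside them can overlap a listed interval, and their 0 overlaps restate that choice. Rows elsewhere on the same chromosome that also overlap no H3K4me3 interval are therefore the ones to set beside them. Such rows numbered 1.17 per Mb inside and 1.61 per Mb elsewhere on chromosome 17 (101 rows), and 0.778 and 1.64 per Mb on chromosome 5 (229 rows). For comparison, all rows on the rest of these chromosomes came to 3.49 and 3.74 per Mb.

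**Figure D2:**
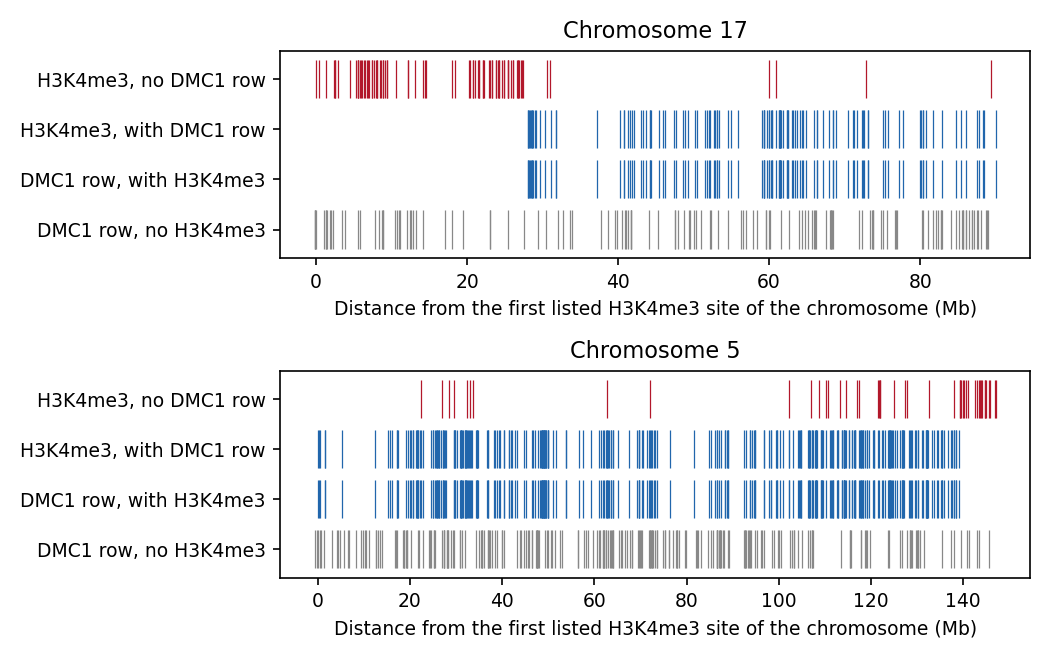
Positions on chromosomes 17 and 5 (horizontal axis, Mb from the first listed H3K4me3 site) of H3K4me3 intervals without and with a DMC1 row and of DMC1 rows with and without an H3K4me3 interval, 1 line per site. Over the first 27.4 Mb of chromosome 17 and the last 7.72 Mb of chromosome 5 only H3K4me3 intervals without a DMC1 row and DMC1 rows without an H3K4me3 interval appear, as the way the runs were picked requires.

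Against those rows, DMC1 medians inside the stretches were lower for each of the 3 genotypes. On chromosome 17 the median DMC1 value was 21.9 RPM inside and 34.2 RPM elsewhere for B6, 30.1 and 45.7 RPM for Ewsr1 CKO, and 3.99 and 6.40 RPM for Prdm9 het. On chromosome 5, with 6 rows inside, B6 had 29.3 and 39.4 RPM, Ewsr1 CKO 29.5 and 48.4 RPM, and Prdm9 het 5.07 and 7.40 RPM. The ranges overlapped: B6 values ran from 8.87 to 149 RPM inside the chromosome 17 stretch and from 6.30 to 164 RPM elsewhere. H3K4me3 in Ewsr1 CKO at these DMC1 rows differed little on chromosome 17, with medians of 0.521 RPM inside and 0.532 RPM elsewhere. On chromosome 5 it was higher inside, at 0.670 against 0.551 RPM. With 6 rows inside, little can be read from either measure on chromosome 5. This comparison was chosen after seeing the data. Which genotype lacked DMC1 at the H3K4me3 intervals of the stretches cannot be read from a list of shared rows. The labels name the engineered alleles of Ewsr1 CKO and Prdm9 het mice but no strain background, and whether the stretches, and with them the 98 intervals, differ between genotypes for that reason was not tested.

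Across all 574 intervals, width and both marks were lower than in intervals with a DMC1 row. The median width was 1378.5 bp (interquartile range 1096 to 1630 bp, range 503 to 3305 bp) against 1801.5 bp (1512 to 2113 bp, range 506 to 11946 bp). Median H3K4me3 was 0.711 RPM (interquartile range 0.553 to 1.00) against 1.04 RPM (0.752 to 1.51), 68.5% of the level with a DMC1 row. Median H3K36me3 was 0.833 RPM (0.524 to 1.41) against 1.46 RPM (0.986 to 2.28), 57.1%. In all 3 measures the interquartile ranges overlapped, so neither width nor either mark separates the sets site by site.

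Counts against fixed levels gave the same order. Width was below the lower quartile of all autosomal intervals, 1462.75 bp, at 346 of the 574 (60.3%), where 25% of all autosomal intervals are by definition. H3K4me3 was below its lower quartile of 0.719 RPM at 296 (51.6%, background 25%) and H3K36me3 below its lower quartile of 0.925 RPM at 311 (54.2%, background 25%). At the other end, H3K4me3 was above its upper quartile of 1.46 RPM at 49 of the 574 (8.54%, background 25%).

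A wider interval collects more reads at the same density of a mark, so the values were also compared per kb and at like width. On the log2(RPM + 0.1) scale the difference of medians, intervals without minus intervals with a DMC1 row, was −0.49 for H3K4me3 and −0.74 for H3K36me3. Per kb of interval it was −0.11 and −0.31, and averaged over the 4 quartiles of width it was −0.054 and −0.11. Median H3K4me3 was 0.541 RPM per kb without and 0.589 RPM per kb with a DMC1 row, and median H3K36me3 0.625 and 0.798 RPM per kb. These values pool sets that went opposite ways. Outside the runs the medians per kb were 87.4% (H3K4me3) and 72.4% (H3K36me3) of the level with a DMC1 row. In the runs they were 125% and 111.5%. The averages over quartiles of width pool both sets as well. In the other direction, width differed by −423 bp overall and by −260 bp averaged over quartiles of H3K4me3, an alternative chosen after seeing the data. Width and H3K4me3 rose together in both sets, with Spearman's rho of 0.750 over the 574 intervals and 0.752 over the 4894, a description over sites of shared columns.

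**Figure D3:**
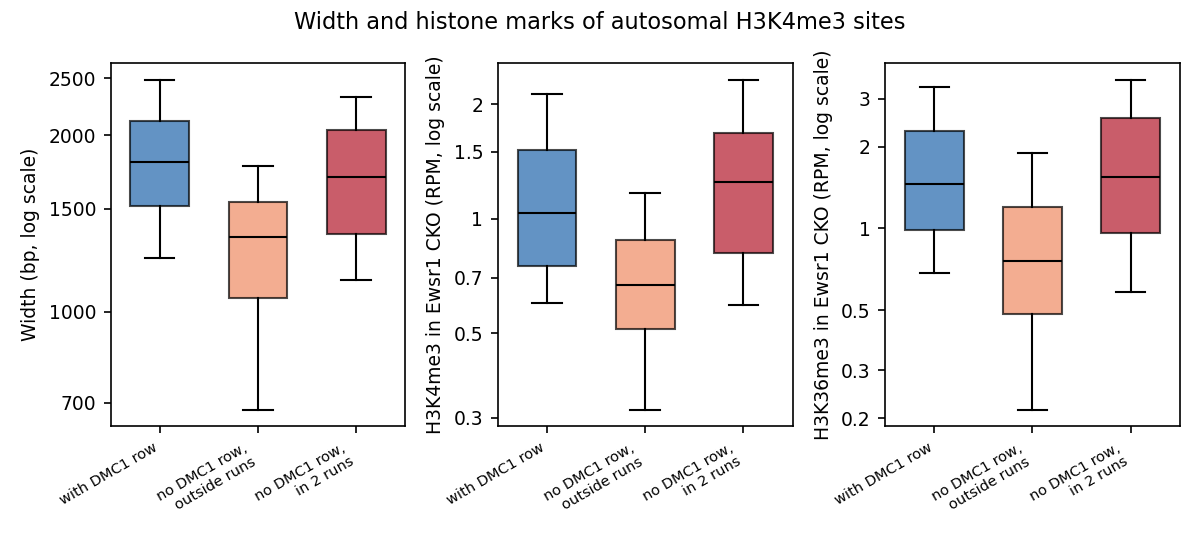
Width (bp), H3K4me3 and H3K36me3 (RPM, Ewsr1 CKO), each on a log axis, for 4894 intervals with a DMC1 row, 476 without one outside the runs and 98 without one in the 2 runs. Boxes show the median and quartiles and whiskers the 10th and 90th percentiles over intervals, with 5 intervals at 0 left out of the H3K36me3 panel, and the middle box is the lowest in each panel.

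The lower values belonged to the scattered intervals. The 476 outside the runs had median values of 1340 bp, 0.670 RPM H3K4me3 (interquartile range 0.514 to 0.880) and 0.748 RPM H3K36me3 (0.471 to 1.20). Of them, 318 (66.8%) were below the lower quartile of width, 274 (57.6%) below that of H3K4me3 and 288 (60.5%) below that of H3K36me3, and 13 (2.73%) were above the upper quartile of H3K4me3. The 6 intervals without a DMC1 row on chromosome 17 beyond the run were of this kind, with medians of 1300.5 bp, 0.647 RPM and 0.534 RPM.

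The intervals in the runs looked different. The 78 on chromosome 17 had median values of 1733 bp, 1.28 RPM H3K4me3 (interquartile range 0.842 to 1.81) and 1.53 RPM H3K36me3 (1.03 to 2.46). The 118 intervals with a DMC1 row on the same chromosome had 1770 bp, 1.06 RPM (0.739 to 1.61) and 1.54 RPM (1.01 to 2.22). The quartiles of both sets overlapped over most of their span. The 20 on chromosome 5 had 1591.5 bp, 1.07 RPM (0.614 to 1.39) and 1.58 RPM (0.793 to 3.06), against 1726.5 bp, 1.02 RPM and 1.34 RPM in the 294 intervals with a DMC1 row there. H3K4me3 was above the upper quartile of all autosomal intervals at 32 of the 78 (41.0%) and at 4 of the 20 (20%), against 35 of 118 (29.7%) and 70 of 294 (23.8%) of the intervals with a DMC1 row on chromosomes 17 and 5. Of the 10 intervals without a DMC1 row that had the highest H3K4me3, 9 lay in the chromosome 17 run, which holds 78 of the 574. Of the top 50, 36 lay in either run, and both runs together hold 98 of the 574.

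Outside the runs, the share of intervals without a DMC1 row fell steeply with width and with each mark. In groups of 537 intervals ranked by H3K4me3, it was 28.7% in the lowest 10% (154 intervals, up to 0.569 RPM) and 0.559% in the highest 10% (3 intervals, from 2.07 RPM). Ranked by width it went from 28.3% (152 intervals, up to 1152 bp) to 0.745% (4 intervals, from 2452 bp). Ranked by H3K36me3 it went from 31.7% (170 intervals, up to 0.607 RPM) to 1.12% (6 intervals, from 3.24 RPM). Most of the fall in each ranking came within the lowest 50% of intervals, and by the fifth group the share was 7.45% for H3K4me3, 6.33% for width and 5.59% for H3K36me3.

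**Figure D4:**
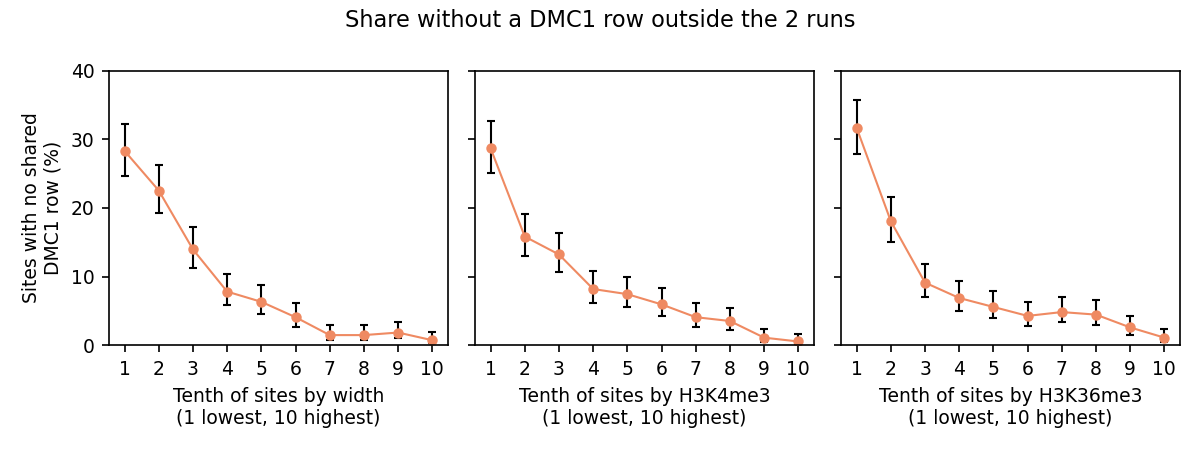
Share of H3K4me3 intervals with no shared DMC1 row (vertical axis, percent) in groups of 537 intervals ranked by width, H3K4me3 or H3K36me3 (horizontal axis, 1 lowest to 10 highest), outside the runs. Bars are Wilson 95% intervals that cover counting error only, and the share falls from 28.3%, 28.7% and 31.7% in the lowest group to 0.745%, 0.559% and 1.12% in the highest.

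Width and density of the mark were then taken apart by splitting the intervals outside the runs into 3 classes of width and 3 of H3K4me3 per kb. Among the narrow intervals the share without a DMC1 row was 22.0%, 19.8% and 17.8% at low, middle and high H3K4me3 per kb. Among those of middle width it was 6.18%, 4.80% and 3.51%, and among the wide it was 3.32%, 1.61% and 0.444% (4 of 900). Width thus ordered the share more than density did, and within each class of width the share was lower where the density was higher.

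The ratio of the 2 marks was lower in the intervals without a DMC1 row. The median log2 ratio of H3K36me3 over H3K4me3, with 0.1 RPM added to each, was 0.17 (interquartile range −0.28 to 0.68) against 0.37 (0.02 to 0.80). H3K36me3 exceeded H3K4me3 at 336 of the 574 intervals (58.5%), against 3721 of 4894 with a DMC1 row (76.0%) and a background of 74.2% over all autosomal intervals. The marks come from separate libraries and antibodies, so a ratio of 0 is set by their scaling and only differences between sets are read. The median ratio was 0.15 outside the runs, 0.21 in the chromosome 17 run and 0.72 in the chromosome 5 run, where H3K36me3 reached a median of 1.27 RPM per kb against 0.767 in the intervals with a DMC1 row on that chromosome. Across intervals the marks went together in every set: Spearman's rho was 0.631 over the 574, 0.669 over the 4894, 0.558 outside the runs and 0.690 in the chromosome 17 run. With both marks divided by interval width these were 0.338, 0.399, 0.265 and 0.492.

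**Figure D5:**
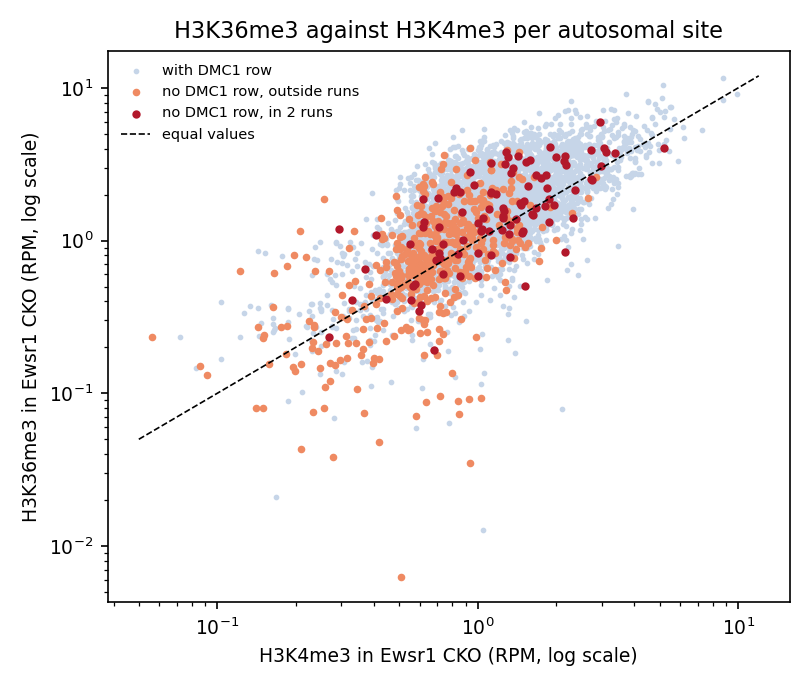
H3K36me3 (vertical axis) against H3K4me3 (horizontal axis) in Ewsr1 CKO, RPM on log axes, 1 point per autosomal interval, with 5 intervals without a DMC1 row whose H3K36me3 is 0 left out and a dashed line at equal values. Intervals in the 2 runs lie among those with a DMC1 row. Every set reaches below the line: 204 of 476 intervals outside the runs (the 5 left out among them), 34 of 98 in the runs and 1173 of 4894 with a DMC1 row. Low values of each mark also occur with a DMC1 row, but make up a larger share outside the runs.

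H3K36me3 differed with gene bodies, where transcription also places it. The midpoint lay in a RefSeq gene at 373 of the 574 intervals (65.0%), against 3101 of 4894 with a DMC1 row (63.4%) and a background of 63.5%, so these shares lay close to the background. At the 373 intervals in genes the median H3K36me3 was 1.05 RPM, with a median log2 ratio of 0.38 and 249 (66.8%) above H3K4me3. At the 201 outside genes it was 0.630 RPM, with a median ratio of −0.07 and 87 (43.3%) above. Intervals with a DMC1 row had median ratios of 0.52 in genes and 0.19 outside, with 82.0% and 65.7% above. The ratio of the intervals without a DMC1 row was thus lower in both places. In the runs the medians were 0.40 in genes and 0.09 outside, and in the scattered intervals 0.37 and −0.09.

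H3K36me3 was listed at 0 at 5 intervals without a DMC1 row and at 0 of those with one, whose lowest value was 0.0128 RPM. H3K4me3 at the 5 ran from 0.661 to 1.05 RPM, around the median of the 574. They were chr14:43250786-43252052 in Gm8126 (1.05 RPM H3K4me3), chr13:66828015-66830258 (0.855 RPM), chr14:53322724-53326029 (0.832 RPM), chr2:178037264-178038831 (0.696 RPM) and chr14:53019239-53021955 (0.661 RPM). The last and the third of these lie in Tcra, the T cell receptor alpha locus, an array of similar gene segments, and the chromosome 14 interval of 3305 bp is the widest of all 574. These 5 were chosen after their values were seen.

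The strongest intervals without a DMC1 row illustrate the chromosome 17 run. The highest H3K4me3 was at chr17:27364532-27367056, 2524 bp wide and outside any RefSeq gene at its midpoint, with 5.17 RPM H3K4me3 and 4.03 RPM H3K36me3, and its nearest DMC1 row was 1019285 bp away. Next came chr17:12697742-12699757 in Igf2r, the receptor that binds insulin-like growth factor 2 (3.37 and 3.72 RPM), and chr17:27932560-27935144 in Anks1 (3.10 and 3.83 RPM). The highest H3K36me3 was at chr17:10278315-10281373 in Qk, which encodes the RNA-binding protein quaking, with 2.95 RPM H3K4me3 and 5.96 RPM H3K36me3 over 3058 bp. It was followed by chr17:30401984-30404273 in Btbd9 (1.89 and 4.10 RPM) and chr17:30009071-30011651 in Zfand3 (3.04 and 4.04 RPM). The third widest, after those in Tcra and Qk, was chr17:27453098-27456125 in Grm4, a metabotropic glutamate receptor gene, at 3027 bp with 2.76 and 2.50 RPM. All of these but the Tcra interval lay in the chromosome 17 run.

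Outside the runs high values were rare. The 3 highest there, chosen after their values were seen, were chr6:114010516-114013232 in Atp2b2, a plasma membrane calcium pump gene (2.84 RPM H3K4me3, 2.62 RPM H3K36me3), chr15:74042602-74044817 (2.66 and 1.91 RPM) and chr8:125537075-125539000 in Sipa1l2 (2.30 and 1.52 RPM). The lowest H3K4me3 was at chr5:75694497-75695017, 520 bp wide, with 0.0564 RPM H3K4me3 and 0.234 RPM H3K36me3. Then came chr11:66913357-66913949 in Pirt (0.0860 and 0.150 RPM) and chr1:95079834-95080364 (0.0912 and 0.131 RPM), each under 600 bp wide. The narrowest were chr8:85028999-85029502 in Trir (503 bp, 0.496 and 0.483 RPM), chr2:163085524-163086033 (509 bp, 0.176 and 0.273 RPM) and chr10:40719902-40720415 in Mettl24 (513 bp, 0.245 and 0.189 RPM). The weakest and the narrowest intervals were thus spread over 6 chromosomes, none of them in a run.

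The balance of the 2 marks was ranked among intervals whose mean of both was at or above the median of the 574. H3K36me3 was highest relative to H3K4me3 at chr16:31665669-31666545 in Dlg1, a gene for a membrane scaffold protein (0.257 RPM H3K4me3, 1.86 RPM H3K36me3, log2 ratio 2.46). The next were chr11:58136493-58138196 in Gemin5, which binds small nuclear RNAs (0.742 and 3.63 RPM, 2.15), and chr9:58982188-58984261 in Neo1, a netrin receptor gene (0.934 and 4.04 RPM, 1.9996). All 3 lie inside gene bodies and outside the runs. H3K36me3 was lowest relative to H3K4me3 at chr17:26294975-26297026 (1.52 and 0.504 RPM, −1.42), chr4:137189120-137190089 in Gm31820 (1.29 and 0.478 RPM, −1.26) and chr17:29871891-29873559 in Mdga1, a cell adhesion gene (2.16 and 0.841 RPM, −1.26). Of these, both on chromosome 17 are in its run. Intervals with H3K36me3 at 0 had lower ratios, but their mean of the marks was below the median.

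The distance to the nearest DMC1 row shows how far the intervals were from overlapping a row. Its median was 88628 bp, with a range of 60 to 1576923 bp. Few were near misses: 8 lay within 500 bp of a row, 11 within 1 kb, 67 (11.7%) within 10 kb and 304 (53.0%) within 100 kb. The median was 71150.5 bp outside the runs, 396988 bp in the chromosome 17 run and 345023 bp in the chromosome 5 run. Since the runs were picked by the same DMC1 rows, their longer distances are not a separate trait. The nearest row had a median B6 DMC1 of 33.9 RPM, against 67.9 RPM for the row that an overlapping interval shares. These sets of rows are not alike, since every shared row has a listed H3K4me3 interval and 1 nearest row can serve several intervals. Over all autosomal rows the median was 47.3 RPM. Rows without an H3K4me3 interval, outside the runs on chromosomes 17 and 5, had medians of 34.2 and 39.4 RPM.

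Intervals on either side of the rule were few. The 8 intervals within 500 bp of a row had median values of 1408 bp, 0.944 RPM H3K4me3 and 0.986 RPM H3K36me3, and B6 DMC1 at their nearest rows ran from 15.3 to 239 RPM. The 12 intervals that shared at most 500 bp with a row had medians of 1197.5 bp, 0.523 RPM and 0.629 RPM. The nearest of all was chr2:76906908-76907569 in Ttn, the gene of the muscle protein titin, 60 bp from a row whose DMC1 was 81.9 RPM for B6, 90.8 RPM for Ewsr1 CKO and 27.7 RPM for Prdm9 het, and its own marks were 0.390 RPM H3K4me3 and 0.310 RPM H3K36me3. Next were chr9:63732171-63733411 in Smad3, a transducer of TGF-beta signals, at 175 bp (0.836 and 0.966 RPM) and chr14:121367488-121368868 in the kinase gene Stk24 at 203 bp (1.14 and 0.852 RPM). On the other side of the rule, chr14:25111396-25112689 shared 127 bp with a row (0.510 and 0.713 RPM), chr7:132793982-132795309 in Fam53b shared 178 bp (0.786 and 1.56 RPM) and chr18:53771293-53771811 shared 255 bp (0.231 and 0.188 RPM).

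The farthest intervals were in the runs, which were picked by the same DMC1 rows. They were chr17:24288342-24290602 in the transporter gene Abca17, 1576923 bp from a DMC1 row (2.73 RPM H3K4me3, 2.52 RPM H3K36me3), and chr17:24734332-24735556 in Rpl3l, a ribosomal protein gene of muscle, at 1545299 bp (1.32 and 1.10 RPM). The third was chr5:150742541-150744339 in Pds5b, which encodes a regulator of cohesin, at 1521727 bp (0.934 and 2.82 RPM), the last listed interval of chromosome 5. Of these, only the Abca17 interval was above the upper quartile of all autosomal intervals in both marks (1.46 RPM H3K4me3 and 2.20 RPM H3K36me3). The interval with the highest H3K4me3 was so too, at 1019285 bp from its nearest row (5.17 and 4.03 RPM).

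The spacing of intervals and their distance to genes were also described. The nearest other H3K4me3 interval was a median of 95818.5 bp away for intervals without a DMC1 row and 119625 bp for those with one. The median number of other DMC1 rows within 250 kb was 2 in both sets. It was 0 in the runs, which were picked by these same rows. The nearest RefSeq start was closer, at a median of 20697 bp against 29619 bp. A start lay within 10 kb of 169 of 564 intervals (29.96%), against 1087 of 4735 (23.0%) and a background of 23.7%. The share was 30.5% outside the runs and 27.6% in them, so this did not come from the runs.

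Intervals without a DMC1 row were more often near the distal end of a chromosome. The end was taken as the last listed site of the chromosome, either an H3K4me3 interval or a DMC1 row. Within 10 Mb of it lay 80 of the 574 (13.9%), against 377 of 4894 with a DMC1 row (7.70%) and a background of 8.36%. The chromosome 5 run lies there entirely and supplies 20 of the 80, and the share outside the runs was 60 of 476 (12.6%).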

How the data were processed

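The authors deposited lists of shared DMC1 and H3K4me3 sites with 1 value per group in RPM, which the file headers describe as read number scaled to library size. The submitters' processing notes name BWA 0.5.10, Trimmomatic 0.32 and the build mm10. Peak caller, treatment of duplicates, input correction and the pooling of samples are not given in the sources used here. Micrococcal nuclease, which leaves nucleosomal DNA, was used to fragment chromatin for the histone marks, and sonication for DMC1, per the labels' protocols. Columns were assigned to groups by genotype and mark. Another 4 columns matched no sample of the series and were not used, so no mark was compared with B6.

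The 5787 lines of the H3K4me3 table included 220 repeats of an interval, which were averaged. Overlap meant at least 1 bp shared with a DMC1 row. A model over samples had been planned where each sample had its own column. With 1 column per group, sets were described by medians, quartiles and counts. Gene names and promoters came from RefSeq tables of GRCm38.p6, the assembly that mm10 denotes. Start sites on chromosome 18 were not analysed here. Named sites were the 3 with the highest or lowest value of each measure, or nearest to or farthest from a DMC1 row. The sites and gene lists were chosen with earlier results of these data known. The 2 runs were found in the data. The functions were tested on simulated data. Tools were bedtools 2.31.1 and Python 3.11.15 with pandas 2.3.3, numpy 2.4.6, matplotlib 3.10.9 and scipy 1.17.1.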

Additional observations from a re-analysis of the deposited data

How the results depend on the processing

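Of 52 recomputed values, 0 changed direction, 34 moved by less than a tolerance and 18 moved by more. Among the 52, 7 were shares, which cannot change direction, and width cannot move when the first line of a repeated interval is kept. The tolerance was the distance from the middle to the edge of a 95% interval. That interval was of the median over intervals without a DMC1 row, or the Wilson interval for the share. Apart from the shares, values are intervals without minus intervals with a DMC1 row, medians, with the marks on the log2(RPM + 0.1) scale. The share without a DMC1 row (10.5%) was 6.78% without the lower quartile of H3K4me3, 8.86% without the 2 runs and 9.30% without chromosome 17. The width difference (−423 bp) was −334.5 bp without the lower quartile, −461.5 bp without the runs and −260 bp within quartiles of H3K4me3. The H3K4me3 difference (−0.49) was −0.23 without the lower quartile, −0.11 per kb, −0.054 within quartiles of width, −0.56 without the runs and −0.54 without chromosome 17. The H3K36me3 difference (−0.74) was −0.39, −0.31, −0.11 and −0.88 for the first 4 of these and −0.26 within quartiles of H3K4me3. The ratio difference (−0.20) was −0.12 within quartiles of width and −0.13 with 1 RPM added in place of 0.1. The causes of the shifts were not tested. Leaving out the runs, chromosome 17 or intervals with H3K36me3 at 0, and the quartiles of H3K4me3, were chosen after seeing the data. Other overlap rules, the X chromosome and the treatment of repeated intervals moved no value by more than its tolerance.

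No paired analysis was possible because each group has 1 column and the columns carry no replicate, and leaving out a replicate was not run for the same reason. Read depth behind the marks is unknown, so low values such as those near 0.1 RPM carry an unknown counting error.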
